A study of Mus musculus and Homo sapiens with 12 samples.

Results

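The genes described are the nucleolar ribosome biogenesis factors, the proteins that make, modify, cut and fold ribosomal RNA and build the ribosomal subunits in the nucleolus. They were taken by symbol, ignoring case: every gene whose symbol starts with UTP, NOP, NOL or RRP followed by a digit, together with FBL, NCL, NPM1, DKC1, GAR1, NHP2, IMP3, IMP4, BOP1, PES1, WDR12, GNL3 and NOLC1. The rule found 85 rows of 21943, which were 45 of 11513 in the human table and 40 of 10430 in the mouse table, and 37 symbols stood in both. The 8 genes in the human table alone were FBL, IMP3, NOL3, NOL8, NOP14-AS1, RRP7B, UTP14C and UTP20, and the 3 in the mouse table alone were Bop1, Nol4l and Utp14b. NOL3, a repressor of apoptosis, and Nol4l met the rule by name and are not known as ribosome factors. NOP14-AS1, typed as antisense, and RRP7B, typed as a processed transcript, also met it by name and are not typed as protein-coding.

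RNA was sequenced from 12 libraries, 2 in each of 6 groups, all of T-ALL (T-cell acute lymphoblastic leukaemia). The human libraries came from the established T-ALL line KOPTK1, cultured for 72 h with DMSO, the carrier, or with Compound E, an inhibitor of gamma-secretase (gSI). Gamma-secretase is the protease that releases the active intracellular part of NOTCH receptors. The mouse libraries came from C57BL/6 mice carrying a secondary transplant of leukaemia with NOTCH-delta E, an activated form of NOTCH1, so that every mouse group, the control included, carried this allele. The mice had spent 3 weeks on a diet with 8 g/kg valine, the control, or with 0.8, 0.4 or 0 g/kg, and leukaemic cells were sorted from the spleen by GFP. Each diet had 1 library named TALL2 and 1 named TALL3, names whose meaning the labels do not give. Since the treatment text also gives the middle doses in g/L of drinking water beside a valine-deficient diet, the diets are used here only in their order. KOPTK1 is a single line, and the labels do not say whether libraries of a group came from separate cultures or mice, so p-values measure only library-to-library spread, which may be technical.

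Ribosome production starts with transcription of a long precursor RNA from the ribosomal DNA by RNA polymerase I. Small nucleolar RNAs guide its chemical modification within 2 kinds of particle: box C/D particles methylate riboses and box H/ACA particles convert uridine to pseudouridine. The small-subunit (SSU) processome, a large assembly on the nascent precursor, shapes and cuts the part that becomes the small (40S) subunit. Other factors, among them the PeBoW complex of PES1, BOP1 and WDR12, process the part that becomes the large (60S) subunit. Growing cells, leukaemias among them, spend much of their biosynthesis on this work, and NOTCH1 in T-ALL and the transcription factor MYC are known to promote it.

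Values were deposited as FPKM, a read count scaled to gene length and library depth. Reads worked out from the steps between the values numbered 22933141 and 25295465 for DMSO, 28557890 and 42232854 for gSI, and 14222895 to 37687253 over the mouse libraries. A human member had 46 to 79255 recovered reads in a library and a mouse member 63 to 103712. The gene lengths recovered with them had a median of 29957 bp in human, against 3184 bp in mouse, so human levels are compared here only within a gene. The summed FPKM of HES1, DTX1 and NOTCH3, targets of NOTCH signalling, was 25.6 to 26.5 with DMSO and 1.95 to 1.98 with gSI. Of 14 T-cell markers, 12 were listed in the human table, with sums of 373 to 389 FPKM with DMSO and 214 to 227 with gSI, and all 14 in the mouse table, with sums of 3580 to 4670 FPKM over the 8 libraries. Human markers of neutrophils, erythroid cells and macrophages were not among the listed genes, and B-cell markers (2 of 6 listed) summed to 10.2 to 10.4 FPKM with DMSO and 4.21 to 4.68 with gSI. In mouse, 11 of 12 neutrophil markers were listed, and their summed FPKM spanned 0.753 to 8.28 at 8 g/kg, 6.69 to 13.7 at 0.8, 12.2 to 72.7 at 0.4 and 307 to 547 at 0 g/kg. The 6 listed of 9 erythroid markers summed to 94.2 to 247 FPKM at 8 g/kg, 23.6 to 36.5 at 0.8, 31.5 to 47.5 at 0.4 and 0.0228 to 2.88 at 0 g/kg. The 6 listed of 8 macrophage markers summed to 5.77 to 14.1 FPKM in the 3 diets that held valine and 35.5 to 38.2 at 0 g/kg. Among them Lyz2 spanned 0.14 to 26.7 FPKM over the 8 libraries, and none of the others exceeded the 6.24 of Cd68. Cd74 was the 1 listed of 6 B-cell markers, at 1.5 to 13.7 FPKM in those 3 diets and 11.5 to 73.0 at 0 g/kg.

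Promoter windows were matched for 33 mouse members. They were searched for CACGTG, the E-box bound by MYC and its relatives, whose reverse complement is the same 6 letters, so a match counts on both strands. Counted by gene, it was found for 7 of the 33 members (21.2%), Imp4, Nol11, Nop2, Pes1, Rrp7a, Utp14b and Utp18, beside 933 of 7577 tested genes with a window (12.3%). Counted by window, since a gene can have several, it was found in 7 of the members' 40 windows (17.5%). This stands beside 2349 of 32841 windows in all (7.15%), which include those of genes not tested here. A match is a description of these letters and not a bound site. Of the members with a match, Imp4, Pes1, Rrp7a and Utp14b lay below both controls at 0 g/kg, Nop2 lay above both, and Nol11 and Utp18 overlapped them. Gar1, Nol4l, Nol7, Nolc1, Nop9, Nop16, Rrp15, Utp15 and Wdr12 also lay below both controls at 0 g/kg, without a match in their windows. Nol6 lay below both as well, but no window was matched for it. Of all tested genes, 22.9% lay below both controls at 0 g/kg and 19.1% above both. A link between match and direction was not tested. The 3 windows below, from RefSeq on GRCm38.p6, each with 250 bases before the transcription start and 50 from it, belong to the 2 members with the smallest p-values under restricted diets, Pes1 and Rrp7a, and to Nop56, whose libraries lay above both controls at 0.8 and 0 g/kg and overlapped them at 0.4 g/kg. They run 5′ to 3′ along the gene, in lower case with CACGTG in capitals. Pes1 was read from chr11:3963725-3964024 on the + strand, with the E-box starting at base 3 of the transcript, Rrp7a from chr15:83122752-83123051 on the - strand, with it starting at -208, and Nop56 from chr2:130274162-130274461 on the + strand, without a match in this window.
Pes1: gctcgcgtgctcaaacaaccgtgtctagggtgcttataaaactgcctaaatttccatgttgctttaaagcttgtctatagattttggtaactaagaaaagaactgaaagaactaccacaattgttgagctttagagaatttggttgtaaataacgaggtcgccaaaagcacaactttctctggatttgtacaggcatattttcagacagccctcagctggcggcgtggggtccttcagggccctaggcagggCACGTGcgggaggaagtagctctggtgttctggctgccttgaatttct
Rrp7a: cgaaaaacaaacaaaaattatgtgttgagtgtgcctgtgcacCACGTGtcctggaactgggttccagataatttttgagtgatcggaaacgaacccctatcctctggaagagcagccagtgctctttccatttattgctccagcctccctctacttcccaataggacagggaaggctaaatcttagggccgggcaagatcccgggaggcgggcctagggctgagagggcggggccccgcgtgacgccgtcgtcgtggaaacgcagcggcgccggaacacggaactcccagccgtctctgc
Nop56: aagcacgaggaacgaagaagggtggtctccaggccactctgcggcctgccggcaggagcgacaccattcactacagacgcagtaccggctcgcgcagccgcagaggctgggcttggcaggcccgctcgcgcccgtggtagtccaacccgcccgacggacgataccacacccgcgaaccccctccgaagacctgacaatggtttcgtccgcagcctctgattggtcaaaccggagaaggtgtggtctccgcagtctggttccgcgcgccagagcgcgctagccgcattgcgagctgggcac

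In KOPTK1, ribosome biogenesis factors changed with gSI in both directions, and their median change was near 0. Of the 45 human members, 34 averaged at least 1 FPKM across the table and were tested with the 6679 genes that passed this filter, by limma on log2(FPKM + 1). At a Benjamini-Hochberg adjusted p under 0.05, 16 of the 34 were called (47.1%), against 53.1% of all tested genes. Of these, 11 fell, where 30.3% of all tested genes fell, and 5 rose, where 22.8% rose. The members' median change was -0.01 on the log2(FPKM + 1) scale, beside -0.03 over all tested genes, and the changes ran from -0.54 to 0.32. Both gSI libraries lay below both DMSO libraries for 13 members (all genes 42.4%) and above both for 7 (all genes 33.9%). The share of members called and their median were both near those of all genes. Within this single line the T-cell and B-cell marker sums given above were also lower with gSI, and a link to these changes was not tested. DTX1 counts both in the T-cell sum and in the sum of NOTCH targets. At equal reads a longer recovered length gives a lower FPKM, but whether length decided which genes failed the filter was not tested. The 11 members that failed it were NOL3, NOL10, NOL12, NOP14-AS1, PES1, RRP1, RRP7B, RRP12, RRP15, UTP20 and WDR12. Their recovered lengths ran from 5586 to 140016 bp, beside 1461 to 82960 bp for the tested members.

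These counts leaned on the gSI libraries. Without gSI replicate 1 the called members numbered 2 higher and 5 lower, and without gSI replicate 2 they numbered 0 higher and 6 lower, by limma at the same threshold with the lone gSI library assumed to vary like the DMSO pair. Over all genes the calls then fell from 3547 to 2418 and 2207. With quantile scaling, in which every library is given the same distribution of values, 8 members were called higher and 9 lower, in place of 5 and 11. All tested genes shifted the same way, to 1986 higher and 1849 lower in place of 1524 and 2023. When the filter was raised to 5 FPKM, 2 were called higher and 3 lower among the 11 members left, beside 415 higher and 724 lower of 2051 genes.

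**Figure D1:**
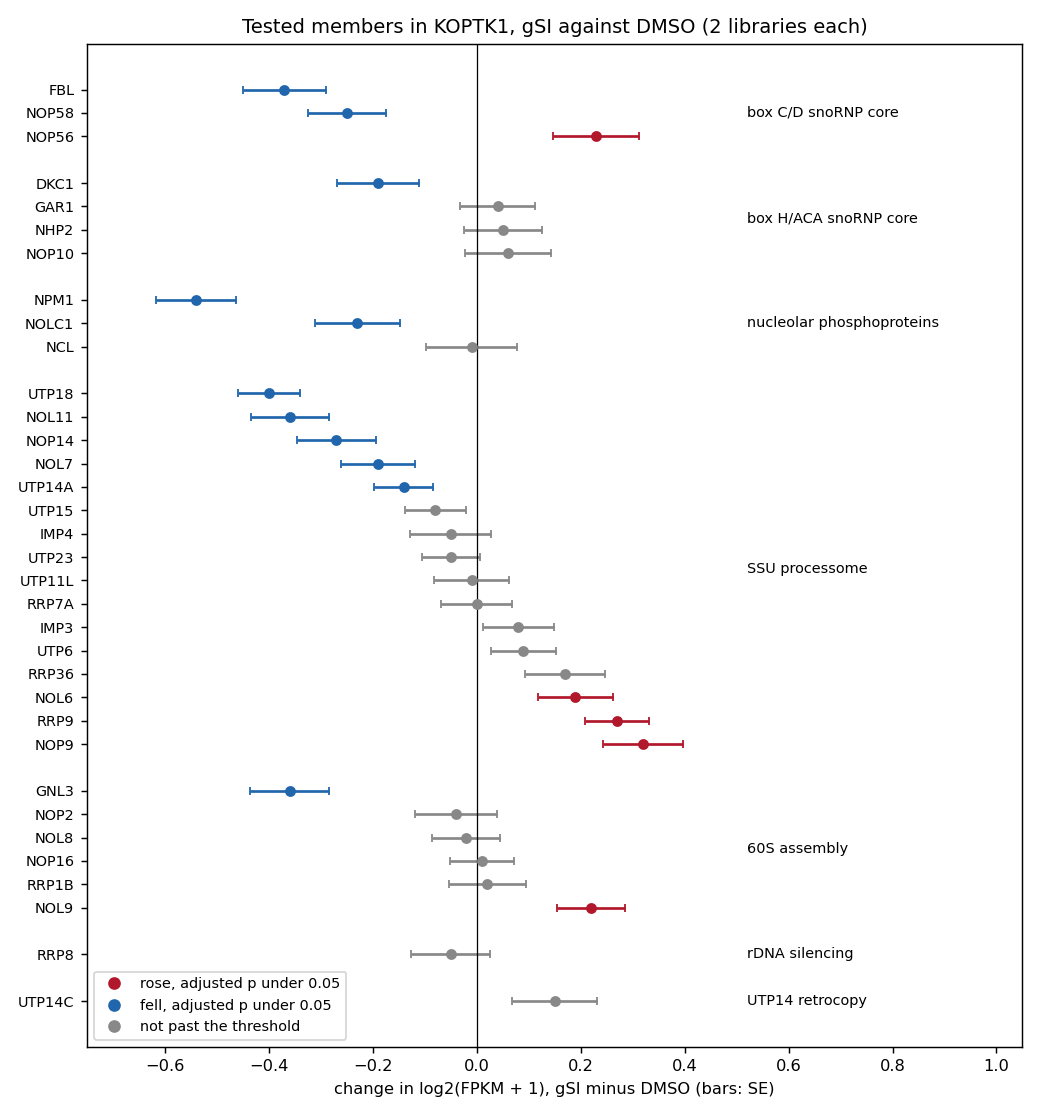
Change in log2(FPKM + 1) of the 34 tested human members, gSI minus DMSO, on the x axis, grouped by role on the y axis, with bars for the standard error of limma and colour for the call. The 11 blue points reach down to -0.54 at NPM1, the 5 red points up to 0.32 at NOP9, and both colours occur within the box C/D core, the SSU processome and the 60S group.

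Of the 3 core proteins of box C/D particles, FBL and NOP58 fell and NOP56 rose. FBL, fibrillarin, the ribose methyltransferase itself, stood at 15.1 and 15.7 FPKM in the DMSO libraries and 11.3 and 12.1 with gSI. Its log2 change was -0.37 ± 0.08 (SE) and it fell with an adjusted p of 3.7e-04 in limma. NOP58, which with NOP56 forms the scaffold of the particle, stood at 4.10 and 3.74 FPKM with DMSO and at 3.03 and 3.24 with gSI, a fall of -0.25 ± 0.0752 (limma adjusted p = 0.00667). NOP56 went the other way, from 25.6 and 23.9 to 28.6 and 30.1 FPKM, a rise of 0.23 ± 0.0825 (limma adjusted p = 0.0184). No DMSO library overlapped a gSI library for any of the 3 genes. Within libraries the ratio of NOP56 to NOP58 FPKM was 6.25 and 6.40 with DMSO and 9.43 and 9.27 with gSI, a description in which the level of the ratio carries the recovered gene lengths. The NOP56 call was lost without DMSO replicate 2 (limma adjusted p = 0.101), gSI replicate 1 (0.0686) or gSI replicate 2 (0.212), and the NOP58 call without gSI replicate 1 (0.156).

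Of the box H/ACA core, only DKC1, dyskerin, the pseudouridine synthase that is mutated in dyskeratosis congenita, passed the test. Its FPKM were 8.47 and 7.76 with DMSO and 6.88 and 7.15 with gSI, a change of -0.19 ± 0.0782 (limma adjusted p = 0.0473). This call sat at the threshold: the adjusted p was 0.0569 without a filter, 0.0621 with the filter at 5 FPKM, 0.101 with quantile scaling and 0.173, 0.314 and 0.184 without DMSO replicate 1, gSI replicate 1 and gSI replicate 2 in limma. Its partners GAR1, NHP2 and NOP10, which bind or stabilise the same particle, had changes of 0.04, 0.05 and 0.06 that did not pass.

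Of the 3 abundant nucleolar phosphoproteins, NPM1 and NOLC1 fell and NCL did not pass. NPM1, nucleophosmin, is a chaperone of pre-ribosomes and histones that is often mutated in acute myeloid leukaemia. It stood at 9.38 and 9.17 FPKM with DMSO and 5.82 and 6.31 with gSI. The change was -0.54 ± 0.0777 on the log2(FPKM + 1) scale, a fold of 0.687 on FPKM + 1 (limma adjusted p = 1.7e-06), and it passed in every alternative run. This was the lowest change of the tested members on that scale, but with a pseudocount of 0.1 NPM1 changed by -0.61 and UTP18 by -0.63, and with voom on the recovered reads by -0.61 and -0.67. NPM1 has processed pseudogene copies, so its count depends on how reads with several matches were assigned, which is not given in the sources used here. NOLC1, a chaperone of small nucleolar particles also called Nopp140, fell from 19.8 and 17.8 to 15.8 and 16.0 FPKM (-0.23 ± 0.082, limma adjusted p = 0.0214), a call lost with quantile scaling (0.164) and without DMSO replicate 1 (0.139), gSI replicate 1 (0.158) or gSI replicate 2 (0.128). NCL, nucleolin, a binder of ribosomal precursor RNA, stood at 59.7 and 52.9 FPKM with DMSO and at 53.3 and 58.7 with gSI. Its groups overlapped and its change of -0.01 ± 0.0881 did not pass in limma (adjusted p = 0.959), while quantile scaling turned it to 0.26 (adjusted p = 0.0103).

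**Figure D2:**
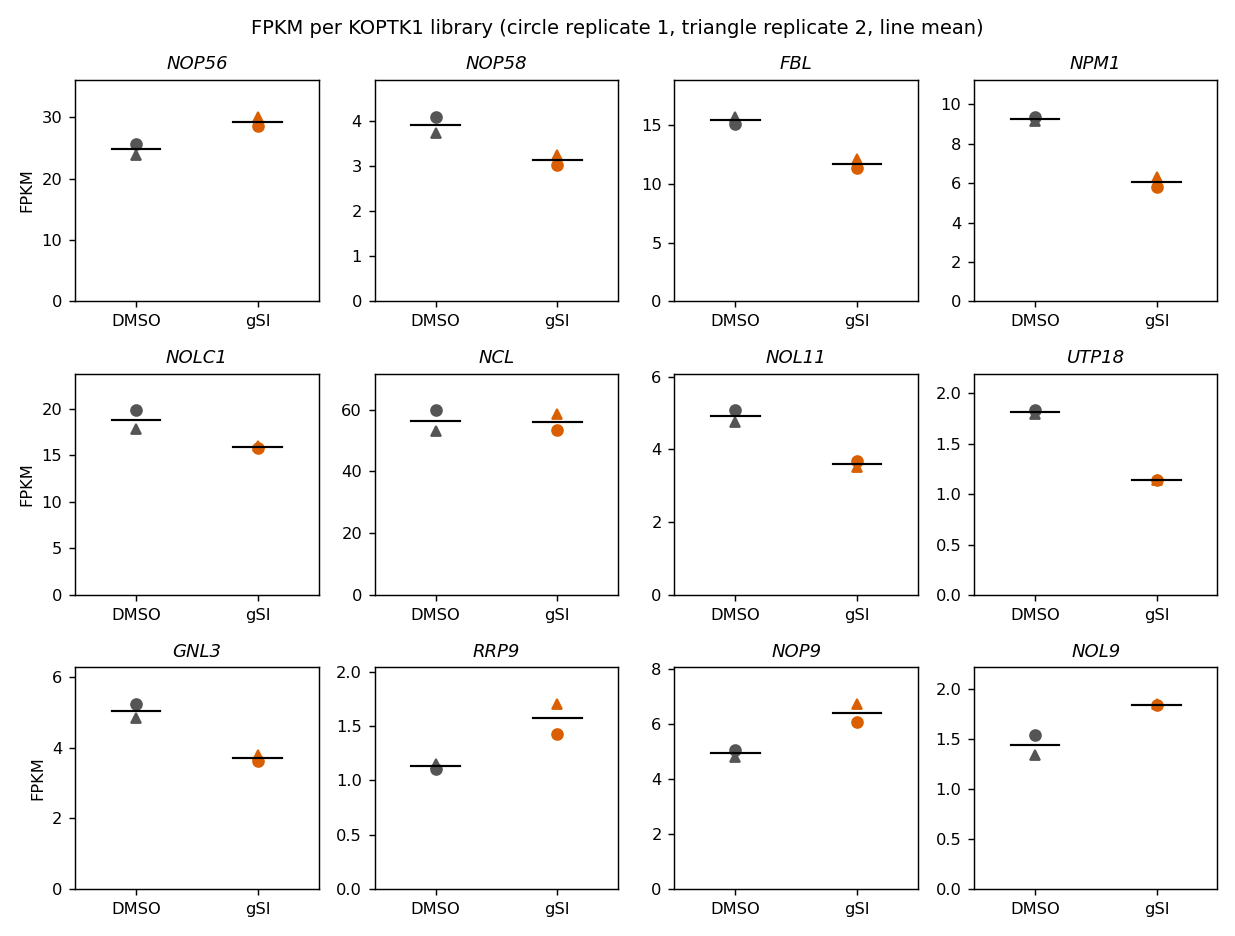
FPKM of 12 human members in each KOPTK1 library, with treatment on the x axis, FPKM from 0 on the y axis, circles for replicate 1, triangles for replicate 2 and a line for the mean of 2. NPM1 falls from 9.38 and 9.17 to 5.82 and 6.31, NOP56 rises from 25.6 and 23.9 to 28.6 and 30.1, and the groups overlap for NCL.

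The SSU processome held members that rose and members that fell. Of its 18 listed members 16 were tested, with a median of -0.03. Of these 5 fell and 3 rose, beside 30.3% and 22.8% of all tested genes, and 8 did not pass. UTP18, a subunit of the UTP-B module, fell from 1.83 and 1.79 to 1.14 in both gSI libraries (-0.40 ± 0.0602, limma adjusted p = 3.9e-06). NOL11, a partner of the module tied to transcription of ribosomal DNA, went from 5.07 and 4.76 to 3.67 and 3.53 FPKM (-0.36 ± 0.075, limma adjusted p = 2.0e-04). Both genes stayed called without either gSI library. NOP14, an early assembly factor, fell by 0.27 ± 0.0755 (limma adjusted p = 0.00319), from 4.03 and 3.54 to 2.94 and 2.96 FPKM. It overlaps its antisense transcript NOP14-AS1, and whether the counting used strand is not given in the sources used here. NOL7 fell by 0.19 (limma adjusted p = 0.0258) and UTP14A by 0.14 (0.0384). Leaving out gSI replicate 1 or 2 ended the calls of NOP14 (limma adjusted p = 0.0605 and 0.0553), NOL7 (0.163 and 0.246) and UTP14A (0.332 and 0.186), and that of UTP14A also ended without a filter (0.0675) or a variance trend (0.0883). UTP14A shares nearly its whole sequence with its retrocopy UTP14C, whose change was 0.15 (limma adjusted p = 0.135), so reads between the 2 genes are uncertain.

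The 3 members of the processome that rose were NOP9, RRP9 and NOL6. NOP9, an RNA-binding protein of the precursor, stood at 5.07 and 4.81 FPKM with DMSO and 6.09 and 6.73 with gSI (0.32 ± 0.0776, limma adjusted p = 0.00112). RRP9, the protein specific to the U3 particle that guides the first cuts, stood at 1.10 and 1.15 FPKM and then at 1.43 and 1.70 (0.27 ± 0.0622, limma adjusted p = 6.7e-04). NOL6, of the UTP-C module, stood at 2.66 and 2.61 FPKM and then at 3.14 and 3.15 (0.19 ± 0.0717, limma adjusted p = 0.0284). All gSI libraries lay above both DMSO libraries for these genes. Without gSI replicate 2 none of the 3 passed, with limma adjusted p of 0.091 for NOP9, 0.103 for RRP9 and 0.218 for NOL6, and without gSI replicate 1 NOL6 did not (0.196). The other tested members, IMP3, IMP4, UTP6, UTP11L, UTP15, UTP23, RRP7A and RRP36, had changes between -0.08 and 0.17. RRP7A was also the steadiest member over the 4 libraries (2.10 to 2.19 FPKM), with the caveat that RRP7B is a close copy.

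Of the factors of the large subunit, 6 of 9 were tested. Of these 1 fell and 1 rose, beside 30.3% and 22.8% of all tested genes, and 4 did not pass. GNL3, nucleostemin, a nucleolar GTPase of proliferating cells, fell from 5.24 and 4.86 to 3.64 and 3.81 FPKM (-0.36 ± 0.0756, limma adjusted p = 2.6e-04). NOL9, the kinase that prepares the spacer between the large-subunit RNAs for trimming, rose from 1.54 and 1.34 to 1.84 and 1.85 FPKM (0.22 ± 0.0647, limma adjusted p = 0.00497), a call lost without gSI replicate 1 (0.0689) or replicate 2 (0.0793). NOP2, an rRNA methyltransferase, NOP16, NOL8 and RRP1B had changes of -0.04, 0.01, -0.02 and 0.02. RRP8, which takes part in silencing of ribosomal DNA, had a change of -0.05 that did not pass.

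The 11 members under the filter were examined with voom on the recovered reads without a filter, an alternative chosen after seeing the data. At the same threshold this run called 6231 of 11513 genes and 20 of all 45 human members, so a call in it is common. RRP15, a 60S assembly factor, went from 0.780 and 0.639 FPKM to 0.464 and 0.435 (-0.65 ± 0.10 on the log2 scale of reads, limma adjusted p = 9.2e-10). UTP20, a large scaffold of the SSU processome, went from 0.534 and 0.497 to 0.360 and 0.339 FPKM (-0.56 ± 0.0938, limma adjusted p = 1.8e-08). NOL3, which met the rule by name only, went from 0.449 and 0.321 to 0.638 and 0.715 FPKM (0.85 ± 0.228, limma adjusted p = 6.4e-04). The other 8, with PES1 and WDR12 of the PeBoW complex among them, did not pass, and PES1 stood at 0.841 and 0.907 FPKM with DMSO and 0.869 and 0.962 with gSI.

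Other genes of the same pathway were taken from lists written by symbol, and their calls are given beside the 30.3% of all tested genes that fell and the 22.8% that rose. Of 22 tested SSU processome and 40S factors outside the members, 8 fell and 2 rose, with a median of -0.12. The 2 largest falls were those of BYSL (-0.57 ± 0.0688) and NOB1 (-0.56 ± 0.0734), both of 40S maturation, and the rises were DDX49 (0.29 ± 0.0747) and TBL3 (0.22 ± 0.0611). Of 30 tested 60S factors, 13 fell and 4 rose, with a median of -0.09. RSL1D1 (-0.73 ± 0.0793) and RSL24D1 (-0.67 ± 0.0788) fell most, and SURF6 (0.35 ± 0.076) and DDX51 (0.35 ± 0.0743) rose most. Of 7 tested genes of the nuclear exosome, which trims precursor ends, 3 fell, led by EXOSC8 (-0.57 ± 0.0749) and EXOSC9 (-0.44 ± 0.0775), and EXOSC4 rose (0.33 ± 0.0708), with a median of -0.16. The medians over the members and over all tested genes were -0.01 and -0.03, and no test of a whole list was made.

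In the mouse leukaemia, no ribosome biogenesis factor passed the test under any diet. All 40 mouse members passed the filter of 1 FPKM and entered 1 limma fit of the 8 libraries with 9943 genes. No gene in the table was called at an adjusted p under 0.05 for 0.8, 0.4 or 0 against 8 g/kg, for the slope over the ranked diets or among the 3 restricted diets, so the background is 0% in each. At an unadjusted p under 0.05 in limma, 3 members passed for 0.8 against 8 g/kg (all genes 4.35%), 4 for 0.4 (all genes 10.7%), 5 for 0 (all genes 10.3%), 6 for the slope (all genes 12.3%) and 0 among the restricted diets (all genes 3.78%). The members that passed were lower with less valine, but the passing genes of the whole table were not counted by direction. Whatever their p, 60%, 59% and 52.2% of all tested genes were lower at 0.8, 0.4 and 0 g/kg, and 53.3% had a negative slope. The slope was coded so that a negative value is a lower level with less valine. limma's voom on the recovered reads, chosen after seeing the data, also called 0 members. The 3 diet comparisons share the 8 g/kg libraries, so their values are not independent and are given side by side.

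The middle of the members lay slightly below the control in each diet. The median member change was -0.09 for 0.8 against 8 g/kg, -0.06 for 0.4 and -0.09 for 0, beside -0.04, -0.05 and -0.01 over all tested genes. The groups did not overlap, with the restricted diet lower, for 12 of 40 members at 0.8 g/kg (all genes 22.5%), 14 at 0.4 (all genes 31.8%) and 14 at 0 (all genes 22.9%). They did not overlap with the restricted diet higher for 4 (all genes 10.6%), 3 (all genes 16.9%) and 2 members (all genes 19.1%). With each restricted library set against the control library of the same name, the median at 0.8 g/kg was -0.15 in TALL2 and 0.02 in TALL3, with 32 and 17 of 40 members lower, beside 59.3% and 58% of all tested genes. At 0.4 g/kg it was -0.09 and -0.05, with 31 and 24 members lower (all genes 61% and 55.3%). At 0 g/kg it was -0.11 and -0.07, with 30 and 29 members lower (all genes 53.4% and 51.1%). Leaving out a library moved these medians: that at 0.8 g/kg was -0.02 without its TALL2 library, and that at 0.4 g/kg was -0.02 without the TALL2 and -0.14 without the TALL3 control. Median-of-ratios scaling gave 0.00 at 0.4 g/kg. The marker sums of neutrophils and macrophages were highest and that of erythroid cells lowest at 0 g/kg, as given above, and their part in these values was not tested. In bulk RNA, fewer cells of a type and less RNA per cell cannot be told apart.

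**Figure D3:**
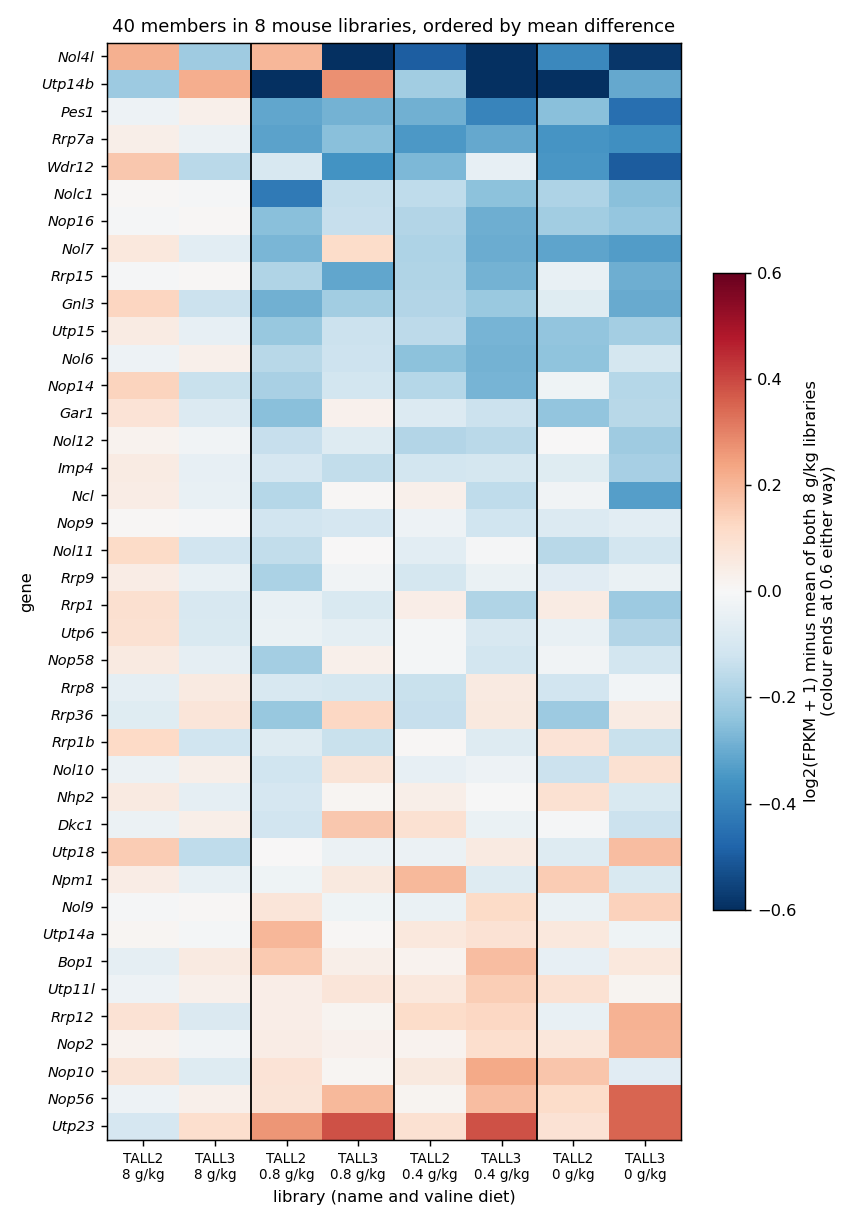
Difference of log2(FPKM + 1) from the mean of both 8 g/kg libraries for the 40 mouse members (rows, ordered by the mean difference over the restricted diets) in the 8 libraries (columns), with blue for lower, red for higher and colours ending at 0.6. Blue is more frequent than red in the restricted libraries, whose median member changes were -0.09, -0.06 and -0.09. By mean difference Nol4l, Utp14b, Pes1 and Rrp7a are among the bluest rows and Nop56 and Utp23 the reddest.

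No member of the PeBoW complex of the large subunit passed the test in a diet, and differences between its members were not tested. Pes1 (chr11:3963975-3980004 on the + strand of GRCm38) stood at 50.2 FPKM in TALL2 and 52.5 in TALL3 on the control diet. It stood at 41.2 and 42.0 with 0.8 g/kg, 41.8 and 38.8 with 0.4 g/kg and 43.0 and 37.2 without valine. In each diet comparison both restricted libraries lay below both controls. Its log2 changes were -0.30, -0.34 and -0.35, each ± 0.0962 (limma adjusted p = 0.998, 0.409 and 0.376). Wdr12 (chr1:60069785-60098645, - strand) had 10.1 and 7.85 FPKM on the control diet and 6.79 and 6.01 without valine, a change of -0.42 ± 0.168 (limma adjusted p = 0.475). At 0.4 g/kg its libraries, at 7.23 and 8.58, overlapped the controls. Bop1, the scaffold of the complex, had changes of 0.10, 0.10 and 0.00, with 58.4 and 63.1 FPKM on the control diet and 58.6 and 63.4 without valine.

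Rrp7a had the smallest p among the members. Its product belongs to the SSU processome, and the gene lies at chr15:83113433-83122801 on the - strand. Its FPKM in TALL2 and TALL3 were 14.7 and 14.0 on the control diet, 11.3 and 11.9 with 0.8 g/kg and 11.1 and 11.4 with 0.4 g/kg. Without valine they averaged 10.9 ± 0.116 (SD, n = 2). Each restricted pair lay below both controls, and the changes were -0.28, -0.32 and -0.36, each ± 0.0868 (limma unadjusted p = 0.0166, 0.00922 and 0.00564, adjusted p = 0.998, 0.397 and 0.369). Among the other 16 listed processome members, Utp15, of the UTP-A module, went from 28.8 and 26.9 FPKM at 8 g/kg to 23.5 and 24.0 at 0 g/kg (-0.22 ± 0.0889, limma adjusted p = 0.481). Nol6 was lowest at 0.4 g/kg, with 37.8 and 36.9 FPKM against 44.2 and 46.0 in the controls (-0.27 ± 0.0814, limma adjusted p = 0.413). Nol7 stood at 66.4 and 60.6 FPKM at 8 g/kg, 52.3 and 68.5 at 0.8, 55.6 and 51.5 at 0.4 and 50.8 and 50.1 at 0 g/kg, so its libraries at 0.8 g/kg lay on both sides of the controls. Utp23 pointed up, from 4.79 and 5.64 FPKM to 6.45 and 7.09 at 0.8 g/kg (0.32 ± 0.164, limma adjusted p = 0.998). Utp11l averaged 11.8 ± 0.391 FPKM (SD, n = 2) on the control diet and stood at 12.3 and 13.1 with 0.4 g/kg (0.10 ± 0.0886, limma adjusted p = 0.72), and Utp14a changed by 0.10, 0.07 and 0.02. The median of the 17 processome members was -0.08, -0.07 and -0.10 for 0.8, 0.4 and 0 g/kg.

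Of the box C/D core, Nop56 and Nop58 were listed in mouse, and neither passed. Nop56 (chr2:130274430-130279313, + strand) stood at 43.6 and 45.5 FPKM at 8 g/kg, 47.0 and 51.1 at 0.8, 45.1 and 50.7 at 0.4 and 48.1 and 57.1 at 0 g/kg, with changes of 0.14, 0.10 and 0.23 ± 0.114 (limma adjusted p = 0.998, 0.794 and 0.531). Its libraries at 0.4 g/kg overlapped the controls and the others did not. Nop58 had changes of -0.09, -0.06 and -0.07, and its libraries overlapped the controls in every diet. The ratio of Nop56 to Nop58 FPKM was 1.01 and 1.14 in the controls and 1.10 to 1.49 in the restricted libraries, which overlap. None of these differences passed the test.

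Nolc1 was lowest in the TALL2 library at 0.8 g/kg. It averaged 99.3 ± 0.912 FPKM (SD, n = 2) on the control diet and stood at 73.9 and 89.8 with 0.8 g/kg, 89.2 and 83.5 with 0.4 and 87.3 and 83.4 without valine, with changes of -0.28, -0.20 and -0.22 ± 0.108 (limma adjusted p = 0.998, 0.567 and 0.534). Ncl, Npm1 and Rrp1 had the highest FPKM of the members, at 248 to 322, 171 to 209 and 163 to 203 over the 8 libraries. Their restricted libraries overlapped the controls in every diet, and Npm1 changed by 0.01, 0.06 and 0.03. At the other end Nol4l (0.564 to 2.02 FPKM) and Utp14b, a retrocopy of Utp14a, (1.08 to 3.39) were the lowest. Nol4l changed by -0.26, -0.61 and -0.48, each ± 0.362, and Utp14b by -0.19, -0.51 and -0.48, each ± 0.384. These were the lowest changes of the members at 0.4 and 0 g/kg, with wide standard errors, and neither gene passed. The box H/ACA members Dkc1, Gar1, Nhp2 and Nop10 had changes between -0.20 and 0.14 in the 3 comparisons.

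The 60S group of 8 members had medians of -0.11, -0.12 and -0.10. Nop16 went from 29.2 and 29.4 FPKM at 8 g/kg to 25.2 and 24.8 at 0 g/kg, with changes of -0.20, -0.24 and -0.22 ± 0.0847 (limma adjusted p = 0.998, 0.434 and 0.473). Gnl3 changed by -0.25, -0.20 and -0.19 ± 0.121 (limma adjusted p = 0.998, 0.609 and 0.62), and its 2 control libraries were apart, at 82.1 and 68.6 FPKM. Nop2 was the only other member besides Nop56 with both 0 g/kg libraries above both controls, at 52.9 and 58.3 against 51.3 and 49.7 FPKM (0.13 ± 0.0821, limma adjusted p = 0.603). Rrp12, which acts in export of the small subunit, had changes of 0.03, 0.12 and 0.08. The pathway genes outside the members gave 0 calls, with medians at 0.8, 0.4 and 0 g/kg of -0.09, -0.11 and -0.12 for 32 SSU and 40S factors, -0.13, -0.10 and -0.12 for 35 60S factors and -0.14, -0.16 and -0.10 for 12 exosome genes.

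**Figure D4:**
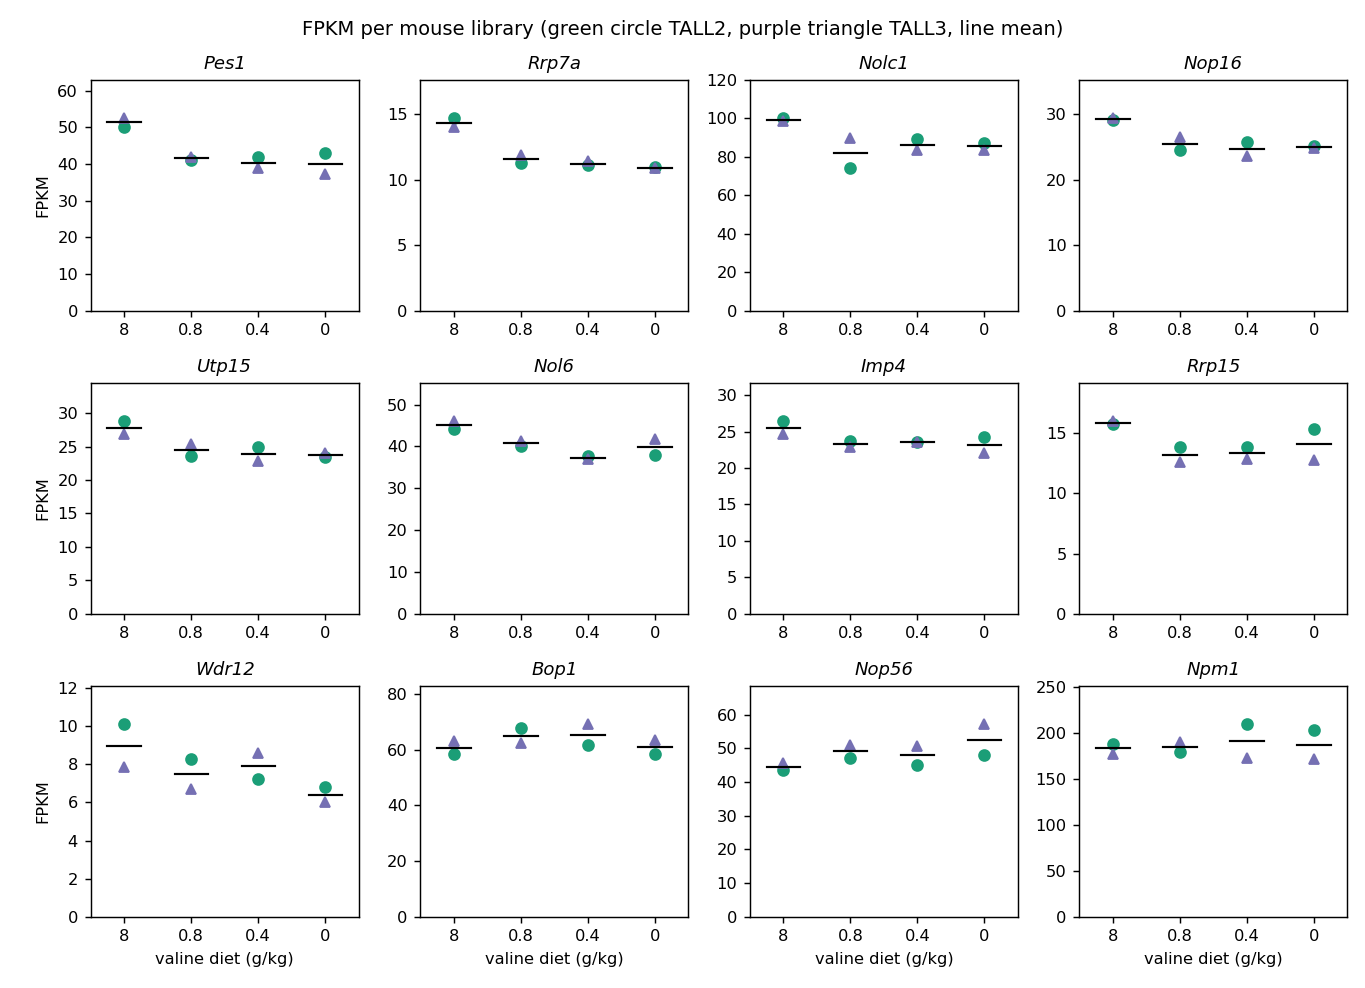
FPKM of 12 mouse members in each library, with the valine diet in g/kg on the x axis, FPKM from 0 on the y axis, circles for TALL2, triangles for TALL3 and a line for the mean of 2. Pes1 and Rrp7a lie below both 8 g/kg libraries in every restricted diet, Bop1 and Npm1 do not, and no member passed the test.

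The members' median coefficient of variation over the 8 mouse libraries was 7.7%, against 12.6% over all tested genes. In KOPTK1 it was 9.73% against 11.7%. The members were not matched to other genes by level, and whether level accounts for these differences was not tested. In mouse the member with the narrowest range on the log2(FPKM + 1) scale was Nop9, at 20.6 to 22.6 FPKM. The widest was Utp14b, at 1.08 to 3.39 FPKM. TALL2 lay above TALL3 in all 4 diets for Nol4l, Rrp1, Rrp1b and Utp6, which is 10% of members against 9.85% of all tested genes. TALL3 lay above TALL2 in all 4 diets for Nol10, Nop56, Rrp36 and Utp23, again 10%, against 13.5% of all tested genes.

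The 2 systems share no libraries, and 30 members were tested in both. Between gSI in KOPTK1 and 0 g/kg in mouse, 11 of the 30 had a change below 0 in both, 3 above 0 in both, 6 below with gSI and above at 0 g/kg, 8 the reverse, and 2 stood at 0.00 in one. Of all tested genes, 54.9% were below 0 with gSI and 52.2% at 0 g/kg, and agreement between the systems was not counted over all genes. Only the KOPTK1 changes include calls. NOLC1 and GNL3 fell with gSI by 0.23 and 0.36, and their mouse changes at 0 g/kg were -0.22 and -0.19 without passing. The Gnl3 libraries at 0 g/kg overlapped the controls. NPM1 fell by 0.54 in KOPTK1, and its change at 0 g/kg in mouse was 0.03. NOP56 rose by 0.23 in KOPTK1 and its change at 0 g/kg was 0.23 without passing. RRP7A and NOP16 had changes of 0.00 and 0.01 in KOPTK1 and of -0.36 and -0.22 at 0 g/kg. The difference between the systems was not tested, since the tables were normalised separately.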

How the data were processed

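RNA of 12 libraries had been purified on RNeasy columns and made into libraries with a strand-marking kit, per the labels' protocols. STAR, edgeR, hg19 and mm10 are named, without versions or roles, per the submitters' processing notes. For the gene model, the lengths and the counting, nothing is given in the sources used here. The authors deposited FPKM values per gene, 1 table per species, which were normalised separately and analysed separately. All sample columns were used.

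The members, roles, pathway and marker lists were chosen with earlier results of these data known. All members may be named. Given in full are called members, for diets the 3 smallest p per direction, fixed members (FBL, NOP56, NOP58, DKC1, NCL, NPM1, NOLC1, BOP1, PES1, WDR12, GNL3) and members against their role group, and of each pathway list the 2 largest changes per direction. Members named beyond these were chosen after their values were seen.

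Genes averaging 1 FPKM or more were tested on log2(FPKM + 1), with limma 3.58.1 in R 4.3.3, a mean-variance trend, two-sided, Benjamini-Hochberg adjustment over all tested genes and a threshold of 0.05. Standard errors (SE) are limma's moderated ones. The 4 diets shared 1 fit; the slope used their rank by falling valine, 0 to 3. Fold changes on this scale understate the change of low genes. Reads were recovered from the steps between FPKM values of a gene, with a gene length that came out whole (within 0.01 bp) for 95.7% of genes in human and 99.6% in mouse; they are estimates. Replicates differed beyond counting noise (chi-square over degrees of freedom 5.73 to 93.1). The scripts were tested on simulated data. Mouse positions are from the GENCODE annotation of GRCm38, the assembly mm10 names; human positions were not analysed here. Alternatives were leaving out each library, a filter at 5 FPKM or none, a pseudocount of 0.1 or 5, quantile or median-of-ratios scaling, a fit without the variance trend, a block for the replicate number, fits of single diet pairs, and, chosen after seeing the data, voom on recovered reads and the diets without both 0.4 g/kg libraries. Python 3.11.15, pandas 2.3.3, numpy 2.4.6 and matplotlib 3.10.9 were used.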

Additional observations from a re-analysis of the deposited data

How the results depend on the processing

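Of the alternatives run, 203 values for counts and medians stayed on their side of the threshold and near the reported value, and 19 moved. With gSI, a filter at 5 FPKM gave 2 members called higher and 3 lower, with groups that did not overlap higher for 2 and lower for 5; fewer members were tested. Quantile scaling gave 8 called higher and 13 not overlapping higher. Without a filter 12 of 45 members did not overlap higher, beside 7 of 34 in the reported fit. Overlap over all genes was counted only in the reported fit. Leaving out 1 library, calls ranged from 0 to 7 higher and from 5 to 11 lower, and the median from -0.06 to 0.03. Leaving out 1 library in the diets, the median ranged from -0.14 to -0.02 at 0.8 g/kg and from -0.14 to -0.02 at 0.4 g/kg. At 0.4 g/kg, median-of-ratios scaling gave a median of 0.00 and 9 members not overlapping higher, and quantile scaling 8. Causes were not tested beyond the fewer genes or libraries in a setting. Mouse members called stayed at 0 in every setting run. No diet setting called more than 2 genes of the whole table, so these counts had little room to move and say little about robustness.

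The replicate number as a block gave 6 members called higher and 11 lower with gSI and 0 for the diets. Same-numbered libraries correlated in their deviations from the group means by 0.258 in KOPTK1 and by -0.174 to 0.743 between diets, with only 2 numbers each and no label saying what they share, so they were not taken as pairs.

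Of the values of single members, 1208 stayed on their side, 28 KOPTK1 calls were lost, as given with each gene, and 27 changed sign, none of them a call under its reported fit. NCL with gSI was 0.01 with median-of-ratios and 0.26 with quantile scaling, and -0.09 to 0.08 leaving out 1 library. Npm1 with quantile scaling was -0.01 at 0.8 and at 0 g/kg, and the Bop1 slope without both 0.4 g/kg libraries was -0.01. Leaving out 1 library at 0.8 g/kg, Dkc1 ranged from -0.12 to 0.16, Ncl from -0.17 to 0.00, Nop58 from -0.20 to 0.03 and Npm1 from -0.03 to 0.06. At 0.4 g/kg Dkc1 ranged from -0.04 to 0.09, Ncl from -0.15 to 0.03, Npm1 from -0.08 to 0.19 and Wdr12 from -0.32 to 0.00. At 0 g/kg Bop1 ranged from -0.05 to 0.06 and Npm1 from -0.09 to 0.15. The slopes ranged from -0.02 to 0.03 for Bop1, -0.03 to 0.00 for Dkc1, -0.03 to 0.00 for Nop58 and -0.01 to 0.05 for Npm1. With 2 libraries a group, and recovered rather than deposited reads, depth and replicate number limit all of these values.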
